A study of Mus musculus with 23 samples.

Results

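The nuclear genome codes for most of the protein of the mitochondrial respiratory chain, and 82 of the 22180 named genes on these mouse arrays belonged to it. A probe set was taken when its single gene symbol matched the naming pattern of a subunit. These were the Nduf genes of complex I, Sdha to Sdhd of complex II, the Uqcr and Uqcc genes of complex III, the Cox4 to Cox8 genes of complex IV and the Atp5 genes of complex V. Where a gene had several probe sets, the brightest over the 23 arrays was kept, which reduced 91 probe sets to 82. Complex I had 31 members, complex II 4, complex III 11, complex IV 18 and complex V 18. Ndufa4 carries a complex I name, but its protein is a subunit of complex IV and it was counted there. The set includes 3 assembly factors of complex III (Uqcc1, Uqcc2 and Uqcc3) and 2 pseudogenes whose names share the prefixes, Atp5c1-ps and Uqcrh-ps1. The subunit genes Cox6c, Ndufb2, Ndufb4, Ndufs6 and Uqcr10 appeared only on probe sets that name several genes and were left out by the rule.

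The respiratory chain passes electrons from NADH through complex I, or from succinate through complex II, to ubiquinone, then through complex III and cytochrome c to complex IV, where oxygen is reduced to water. Complexes I, III and IV pump protons across the inner mitochondrial membrane, and complex V, the ATP synthase, lets them back to make ATP. Complexes I, III, IV and V are built from subunits coded in the nucleus and in mitochondrial DNA, while complex II is coded by the nucleus alone. Neurons depend heavily on this pathway to restore their ion gradients. Nr1d1 codes for REV-ERBα, a nuclear receptor that binds haem, acts in the circadian clock and silences its target genes.

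The study injected adult mice in the nucleus accumbens, a ventral striatal region involved in reward, with an adeno-associated virus (AAV). The virus expressed either a hairpin RNA (shRNA) aimed at Nr1d1 or one with a scrambled sequence. The groups were 5 female controls, 6 females labelled knockdown, 6 male controls and 6 males labelled knockdown, each array from 1 mouse and all described as biological replicates. All mice were of strain C57BL/6, about 15 weeks old, and the tissue was micropunched about 5 weeks after the injection. Both the controls and the labelled knockdowns had therefore received a virus, and no group without one was analysed here. The protocol text places collection on a postpartum day for the samples of both sexes, and the hour of collection was not given in the sources used here. A punch holds neurons, glia and vessels together, with transduced and untransduced cells, so a lower level in it may mean fewer cells of a type or less RNA per cell, which cannot be told apart.

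The deposited values are log2 intensities, in which a difference of 1 is a doubling. The median over all probe sets was 6.11 to 6.17 on the 11 female arrays and 5.84 to 5.88 on the 12 male arrays, and the quartiles were shifted likewise, so sex and the scale of the array set cannot be told apart and levels are not compared between the sexes here. Xist and the Y-linked Eif2s3y matched the labelled sex on all 23 arrays. The targeted gene did not differ between labelled groups beyond the spread between mice. Nr1d1 was at 10.04 ± 0.07 (SD, n = 5) in female controls and 9.99 ± 0.16 (n = 6) in labelled knockdowns, a difference of -0.05 with a 95% confidence interval of -0.24 to 0.13. In males it was at 9.59 ± 0.20 and 9.58 ± 0.13 (n = 6 each), a difference of -0.01 with an interval of -0.19 to 0.17. Every direction given below is therefore between mice as labelled, not between mice shown to differ in Nr1d1. The striatal dopamine receptor genes Drd1 and Drd2 were bright on every array (9.82 to 11.76). Slc17a7, which codes for the glutamate transporter of cortical excitatory neurons, ranged from 8.92 to 11.13 in females and from 4.64 to 10.34 in males, so this marker varied widely between punches of 1 group.

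Respiratory chain promoters are known for sites of the nuclear respiratory factor NRF-1, of ETS factors such as GABP, of the oestrogen-related receptors (ERR) and of YY1. RefSeq promoters (GRCm38.p6, 250 bases before to 50 after the start) were found for 67 of the 82 members and for 17491 protein-coding genes in all. The NRF-1 core GCGCATGC, on either strand, was in 10 of the 67 promoters (14.9%) and in 3.93% of all coding genes. The ETS core CCGGAAG was in 17 (25.4%, against 12.9%), the ERR core AAGGTCA in 7 (10.4%, against 4.73%) and AAGATGG, a YY1 core, in 11 (16.4%, against 7.18%). The ERR core ends in AGGTCA, the half-site that REV-ERB proteins also read, so a match does not tell these receptors apart. The promoters below are shown because they hold the NRF-1 core, with 1 for each complex. They are Ndufa11 (chr17:56717512-56717811, plus strand), Sdhb (chr4:140961021-140961320, plus strand), Uqcr11 (chr10:80406772-80407071, minus strand), Cox6a1 (chr5:115348909-115349208, minus strand) and Atp5k (chr5:108434350-108434649, minus strand). They are written 5′ to 3′ on the gene's own strand, with matches to any of the 4 cores in capitals.
Ndufa11: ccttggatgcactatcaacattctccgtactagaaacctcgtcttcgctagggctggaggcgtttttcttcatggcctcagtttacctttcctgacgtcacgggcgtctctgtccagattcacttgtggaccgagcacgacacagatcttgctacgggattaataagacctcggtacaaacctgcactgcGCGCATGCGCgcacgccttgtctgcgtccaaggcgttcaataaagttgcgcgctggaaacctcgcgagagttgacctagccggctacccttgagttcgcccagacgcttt
Sdhb: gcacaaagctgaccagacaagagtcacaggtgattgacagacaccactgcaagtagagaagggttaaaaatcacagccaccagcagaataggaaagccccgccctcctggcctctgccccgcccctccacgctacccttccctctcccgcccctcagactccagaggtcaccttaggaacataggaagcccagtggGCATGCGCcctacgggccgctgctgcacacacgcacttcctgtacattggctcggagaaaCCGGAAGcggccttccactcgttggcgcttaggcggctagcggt
Uqcr11: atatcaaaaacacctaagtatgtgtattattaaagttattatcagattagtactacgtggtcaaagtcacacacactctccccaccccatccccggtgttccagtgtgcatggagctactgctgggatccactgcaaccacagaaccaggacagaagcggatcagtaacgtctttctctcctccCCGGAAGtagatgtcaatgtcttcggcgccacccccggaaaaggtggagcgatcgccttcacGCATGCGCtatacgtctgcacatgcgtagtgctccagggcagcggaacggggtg
Cox6a1: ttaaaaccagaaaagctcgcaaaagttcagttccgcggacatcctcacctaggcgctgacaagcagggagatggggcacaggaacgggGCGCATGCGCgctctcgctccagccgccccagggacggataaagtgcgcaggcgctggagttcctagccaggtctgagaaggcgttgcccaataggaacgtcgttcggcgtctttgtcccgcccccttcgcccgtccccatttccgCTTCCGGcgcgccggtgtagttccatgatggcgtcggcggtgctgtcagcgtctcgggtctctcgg
Atp5k: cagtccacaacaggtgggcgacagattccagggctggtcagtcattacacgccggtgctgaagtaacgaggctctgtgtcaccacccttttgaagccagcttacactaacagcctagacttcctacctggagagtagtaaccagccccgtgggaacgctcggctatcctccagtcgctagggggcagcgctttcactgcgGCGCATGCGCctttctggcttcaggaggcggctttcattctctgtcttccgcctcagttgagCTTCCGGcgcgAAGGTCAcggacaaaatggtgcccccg
The start site is position 0. In Ndufa11, Cox6a1 and Atp5k the capitals GCGCATGCGC hold the NRF-1 core on both strands, and these matches overlap. The first base of the core lay at -60 in Ndufa11, -54 in Sdhb, -4 in Uqcr11, -162 in Cox6a1 and -50 in Atp5k. Sdhb, Uqcr11, Cox6a1 and Atp5k also hold the ETS core, and Atp5k in addition holds the ERR core, at 23 bases after the start. A match is a run of letters, not a shown binding site.

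Most members were bright. Their median level, as the mean over 23 arrays, was 8.79 (quartiles 7.38 and 9.75). Of the 82, 72 lay above the median of all named genes (6.52) and 47 above the upper quartile (8.12). Levels of different genes were read by different probes, so they order brightness on the array and not the amount of RNA. The complex medians were 8.82 for complex I, 9.25 for complex II, 7.68 for complex III, 8.08 for complex IV and 8.88 for complex V. The brightest member of each was Ndufb9 (11.78), the flavoprotein subunit Sdha (11.04), Uqcrb (11.52), Cox6a1 (12.69) and the ATP synthase β subunit Atp5b (12.18). The dimmest were Ndufb11 (5.85), the iron-sulphur subunit Sdhb (8.40), Uqcrh-ps1 (4.28), Cox7b2 (3.96) and Atp5c1-ps (3.79). Complex IV held the widest range, and its dim end was made largely of 7 isoforms that are best known from muscle, testis or lung. Cox7b2 was below the lower quartile of each array.

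**Figure D1:**
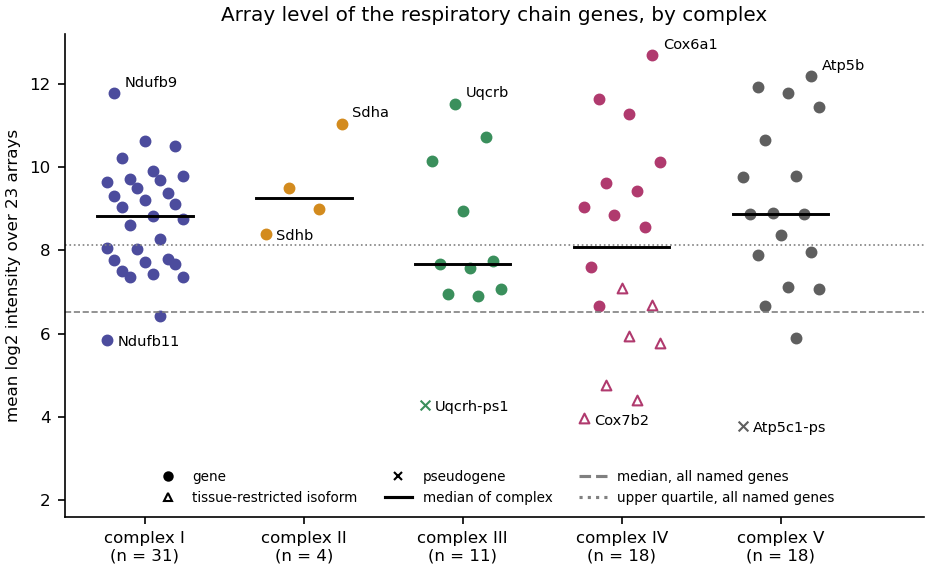
Mean log2 intensity of each of the 82 genes over 23 arrays (vertical axis), in columns by complex. Circles are genes, open triangles the 7 tissue-restricted isoforms and crosses the 2 pseudogenes; bars are complex medians (7.68 to 9.25), and the dashed and dotted lines are the median (6.52) and upper quartile (8.12) of all named genes.

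In females, 68 of the 82 genes had a lower mean in the labelled knockdowns than in the controls, and no gene passed the test. The median difference was -0.07 (quartiles -0.111 and -0.025), which is 4.7% lower on the linear scale, and single genes ran from -0.27 to 0.18. Over all 22180 named genes 49.8% were lower and the median was 0. Brightness moves with this count. Among the 6725 named genes with levels between the members' quartiles, 68.2% were lower and the median was -0.029. After Benjamini-Hochberg adjustment over all 41345 probe sets, limma called 0 of them (0%) and 0 members, and the smallest adjusted p of a member was 0.839. At an unadjusted p under 0.05, 18 members were lower, where 2.74% of named genes were, and 1 was higher (Cox8b), where 2.89% were. Of the 6725 genes of like brightness, 353 were lower and 63 higher at that threshold. The values of controls and labelled knockdowns did not overlap for 4 members, all lower (Atp5h, Atp5l, Atp5pb and Cox5a), against 0.325% of named genes. No member was higher without overlap (0.302% of named genes were). Of the 6725 genes of like brightness, 43 were lower and 9 higher without overlap. These genes covary, so such counts are descriptions and not separate pieces of evidence.

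The shift was seen mouse by mouse as well. The median over the 82 genes, taken against the female control mean, was -0.04, -0.13, -0.068, -0.047, -0.12 and -0.051 in the 6 labelled knockdowns. In the 5 controls it ran from -0.031 to 0.03, so the groups did not overlap on this summary. Labelled knockdowns 2 and 5 stood lowest, with 69 and 68 of 82 genes below the control mean, against 51 to 63 in the other 4 mice. The 6725 genes of like brightness gave medians from -0.058 to 0.006 in the same mice, overlapping their controls. All 6 labelled-knockdown medians also lay below 0 under quantile normalization (-0.118 to -0.024) and with each array centred on its median (-0.172 to -0.049). The median female difference of all named genes was -0.001 under quantile normalization and -0.025 when arrays were centred. The mean level over the 82 genes was 8.67 ± 0.03 (SD, n = 5; 8.64 to 8.71) in controls and 8.60 ± 0.03 (n = 6; 8.55 to 8.63) in labelled knockdowns.

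**Figure D2:**
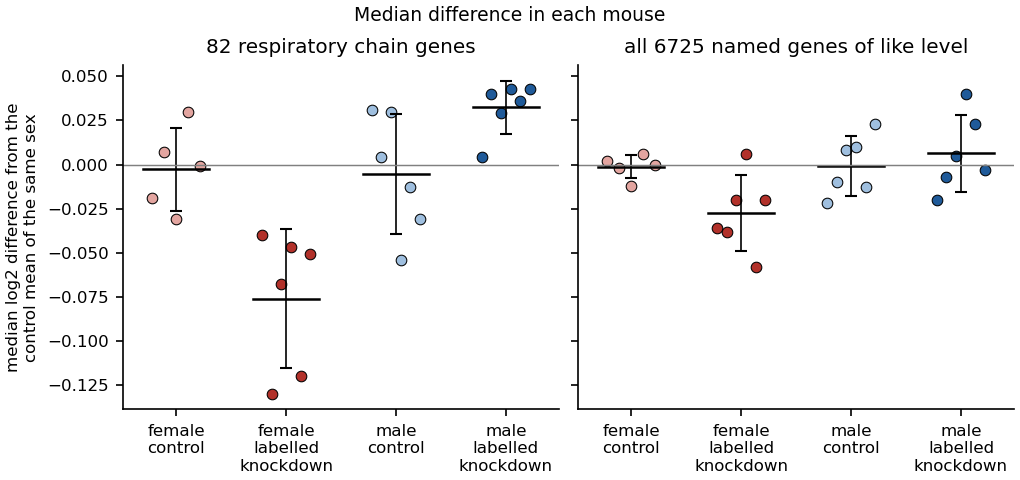
Median log2 difference of each mouse from the control mean of its sex (vertical axis), over the 82 respiratory chain genes (left) and the 6725 named genes of like brightness (right), by labelled group. Points are mice, bars the mean and whiskers the SD; the 6 female labelled knockdowns lie at -0.13 to -0.04 on the left, below the 5 female controls, and the male groups overlap.

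In males more of the genes were higher than lower, and the differences were smaller. Of the 82 genes 59 had a higher mean in the labelled knockdowns, 22 a lower mean, and Atp5b was equal. The median difference was 0.027 (quartiles -0.002 and 0.067), which is 1.9% higher on the linear scale, against 0.003 over all named genes and 0.007 over genes of like brightness. No probe set passed the test (0%), and the smallest adjusted p of a member was 0.975. At an unadjusted p under 0.05, 6 members were higher (background 2.07%) and 0 lower (background 1.89%). Of the 6725 genes of like brightness, 131 were higher and 61 lower at that threshold. The count of 6 members fell to 3 without male control 6 and was 9 without male control 3. The groups overlapped for all 82 genes, where 0.0316% of named genes were lower and 0.0631% higher without overlap. The medians per mouse were 0.004, 0.04, 0.029, 0.043, 0.036 and 0.043 in labelled knockdowns and -0.054 to 0.031 in controls, so these overlapped. With each array centred on its median, 1 of the 6 male labelled knockdowns lay below 0 (-0.008).

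The difference between the sexes in the labelled knockdown effect was tested directly, as the male minus the female difference. It was above 0 for 69 of the 82 genes, with a median of 0.095, against 0.002 over all named genes and 0.033 over genes of like brightness. Above 0 were 11221 of the 22180 named genes and 4412 of the 6725 of like brightness. No member passed (smallest adjusted p 0.845, background 0%). At an unadjusted p under 0.05, 20 members were above 0 (background 2.72%) and 1, Cox8b, below (background 2.46%). Of the 6725 genes of like brightness, 329 were above 0 and 32 below at that threshold. Quantile normalization lowered the 21 members at that threshold to 13, and the 19 of the female comparison to 12. Averaged over both sexes, 60 of the 82 genes were lower and the median was -0.022, and again no probe set passed (0%). On that average 48.6% of all named genes were lower (median 0.002), and 60.5% of those of like brightness (median -0.012).

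Among the members, the female difference went with brightness. All 32 genes with a mean level of 8 to 10 were lower (median -0.096), as were all 17 at 10 or above (median -0.079), while quantile normalization left 45 of these 49 lower and centring left all 49. Among all named genes of these levels 68.2% and 65.4% were lower as deposited. Of the 5956 named genes at 8 or above, 52.7% were lower under quantile normalization and 80.9% when arrays were centred. Of the 24 members at 6 to 8, 17 were lower, and of the 9 below 6, 2 were. The dimmest genes of the array as a whole were more often higher than lower, with 33.4% lower below a level of 6. These level bands were chosen after the values were seen.

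Complex I, the NADH dehydrogenase, was lower in females for 30 of its 31 genes, with a median of -0.087. At an unadjusted p under 0.05, 9 were lower (background 2.74%, and 353 of the 6725 genes of like brightness). The mean level of complex I was 8.86 ± 0.04 (SD, n = 5; 8.81 to 8.90) in controls and 8.78 ± 0.04 (n = 6; 8.73 to 8.82) in labelled knockdowns. The 6 nuclear core subunits, which carry the flavin and the iron-sulphur clusters (Ndufs1, Ndufs3, Ndufs7, Ndufs8, Ndufv1 and Ndufv2), had differences from -0.17 to -0.06. Of the 25 supernumerary subunits 24 were lower, and Ndufs5 was higher by 0.09. Female labelled knockdown 5 was at 7.07 for Ndufs5. The other labelled knockdowns were at 6.35 to 6.64 and the controls at 6.48 to 6.63. In males 26 of the 31 were higher, with a median of 0.027.

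Ndufb8, a membrane-arm subunit much used as a marker of assembled complex I, had the smallest female p of the complex. It was at 7.47, 7.58 and 7.75 (lowest, median and highest) in controls and at 7.24, 7.34 and 7.48 in labelled knockdowns. The groups met at a single point, with the highest labelled knockdown just above the lowest control. The difference was -0.24 (SE 0.06, 95% interval -0.37 to -0.11), with an unadjusted p of 0.000849 and an adjusted p of 0.839 in limma. In males it was 0.08 higher (adjusted p 0.996). Ndufs8, a core subunit with iron-sulphur clusters, was at 8.91, 9.0 and 9.11 in female controls and at 8.71, 8.81 and 8.95 in labelled knockdowns, with overlap. Its difference was -0.17 (SE 0.06) in females and 0.13 (SE 0.05) in males, where controls were at 8.98, 9.12 and 9.25 and labelled knockdowns at 9.13, 9.24 and 9.30. The sex difference of Ndufs8 was 0.30 (SE 0.08, adjusted p 0.845). Ndufs4, an accessory subunit whose loss causes Leigh-like disease in mice, differed by -0.16 (SE 0.05) in females and 0.04 in males. Ndufv2 and Ndufc2 were lower in both sexes, at -0.15 and -0.04 for Ndufv2 and -0.13 and -0.05 for Ndufc2. Ndufa7 had the smallest male p, with controls at 7.41, 7.56 and 7.63 and labelled knockdowns at 7.62, 7.75 and 7.90. Its male groups overlapped only at their edges, and the difference was 0.20 (SE 0.06, adjusted p 0.975).

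Complex II, which also works in the citric acid cycle as succinate dehydrogenase, was lower in females for 4 of 4 genes, with a median of -0.094 and 0 at an unadjusted p under 0.05. Sdhc, a membrane anchor, was at 9.60, 9.76 and 9.87 in female controls and at 9.50, 9.61 and 9.72 in labelled knockdowns, so most values overlapped. Its difference was -0.12 (SE 0.07) in females and 0.09 (SE 0.07) in males. Sdha differed by -0.11 (SE 0.06) in females and -0.03 in males, the anchor Sdhd by -0.08 and -0.01, and Sdhb by -0.03 and 0.06.

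Complex III, the cytochrome bc1 complex, was lower in females for 10 of 11 genes (median -0.064), with 0 at an unadjusted p under 0.05, and its male median was 0.002. Uqcrh, the hinge protein, had the largest female difference, at -0.14 (SE 0.07), and in males it was 0.01. Uqcrc2, a matrix-side core protein, varied least of all 82 genes within groups (SD of the deviations 0.044). It was at 10.67, 10.72 and 10.77 in female controls and at 10.59, 10.64 and 10.74 in labelled knockdowns, a difference of -0.07 (SE 0.04). In males both groups of Uqcrc2 spanned 10.69 to 10.78. Uqcc2, an assembly factor, went the other way in the male mice, with controls at 6.34, 6.71 and 6.82 and labelled knockdowns at 6.77, 6.84 and 6.96. Its male difference was 0.20 (SE 0.07, adjusted p 0.996), against -0.11 (SE 0.08) in females. Uqcrb, the brightest of the complex, differed by -0.01 in females, a sign that turned under quantile normalization, and by 0.01 in males.

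Complex IV, cytochrome c oxidase, was mixed. In females 10 of 18 genes were lower (median -0.016), with 4 lower (background 2.74%) and 1 higher (background 2.89%) at an unadjusted p under 0.05. Of the 6725 genes of like brightness, 353 were lower and 63 higher at that threshold. With each array centred on its median 14 of the 18 were lower, and 12 under quantile normalization. Over all 22180 named genes, 13829 were lower when arrays were centred and 11231 under quantile normalization. Cox5a, a matrix-side subunit, was at 9.63, 9.72 and 9.79 in female controls and at 9.37, 9.57 and 9.60 in labelled knockdowns. All 6 labelled knockdowns lay below all 5 controls. The difference was -0.16 (SE 0.05), with an unadjusted p of 0.00309 and an adjusted p of 0.839 in limma, and in males it was 0.09 (SE 0.05). Cox7b, a small membrane subunit, had the largest female difference of the 82 genes. It was at 8.50, 8.57 and 8.66 in controls and at 8.06, 8.28 and 8.52 in labelled knockdowns, and 3 of the 6 labelled knockdowns lay at 8.06 to 8.17. The difference was -0.27 (SE 0.10, adjusted p 0.839). In males Cox7b was at 8.29, 8.76 and 8.82 in controls and 8.67, 8.80 and 8.89 in labelled knockdowns, a difference of 0.15 (SE 0.10). Male controls 4 and 6 were at 8.29 and 8.38, and the other male controls at 8.73 to 8.82, within the range of the labelled knockdowns.

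Subunits IV, VIa, VIb, VIIa and VIII exist as paralogs with probe sets of their own. The common forms had lower female means. Cox4i1, the common subunit IV, differed by -0.16 (SE 0.07), Cox6b1 by -0.10 (SE 0.08), Cox8a by -0.07 (SE 0.05), Cox7a2 by -0.06 (SE 0.06), Ndufa4 by -0.05 (SE 0.05) and Cox6a1 by -0.02 (SE 0.04). Cox7a2l, which helps to join complexes III and IV, differed by 0.01 (SE 0.06), a sign that turned when arrays were centred. Of the 7 restricted forms (Cox4i2, Cox6a2, Cox6b2, Cox7a1, Cox7b2, Cox8b and Cox8c) 6 were higher, with a median of 0.047, but 4 of 7 were higher under quantile normalization or when arrays were centred. Cox6b2, Cox7a1, Cox7b2, Cox8b and Cox8c had mean levels below 6. Of all named genes below that level 33.4% were lower in females, with a median of 0.032, so dim genes in general leaned the same way. The muscle form Cox8b was at 4.43, 4.54 and 4.58 in female controls and at 4.53, 4.62 and 4.94 in labelled knockdowns, a difference of 0.17 (SE 0.08) among the dimmest values of the array. Cox6a2, the muscle form of VIa, which is also known from some neurons, was at 7.15, 7.21 and 7.31 in controls and at 7.14, 7.32 and 7.70 in labelled knockdowns. The labelled knockdowns of Cox6a2 enclosed the range of the controls, and the difference was 0.14 (SE 0.09). In males Cox6a2 differed by 0.11 (SE 0.08) and Cox7a1, the muscle form of VIIa, by 0.15 (SE 0.06). For Cox6a2, male controls 4 and 6 were at 6.70 and 6.60. The other male controls were at 6.96 to 7.04 and male labelled knockdowns at 6.91 to 7.06. Ndufa4l2, a paralog of Ndufa4 that the rule does not include, was dim in all groups (5.8 to 6.35).

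Complex V, the ATP synthase, was lower in females for 14 of 18 genes (median -0.059). At an unadjusted p under 0.05, 5 were lower (background 2.74%, and 353 of the 6725 genes of like brightness). Of the genes whose female groups did not overlap, 3 belong to complex V (background 0.325%, and 43 of the 6725 genes). The peripheral stalk, which holds the catalytic head still, was lower for 4 of 4 genes (median -0.082). Atp5pb, its long b subunit, was at 9.85, 9.89 and 9.92 in female controls and at 9.65, 9.74 and 9.83 in labelled knockdowns, with all 6 below all 5. Its difference was -0.14 (SE 0.04), with an unadjusted p of 0.0021 and an adjusted p of 0.839 in limma, and in males it was -0.01. Atp5h, the stalk's d subunit, was at 11.44 to 11.54 in controls and 11.29 to 11.43 in labelled knockdowns, a difference of -0.11 (SE 0.05). Atp5l, the g subunit of the membrane part, was at 9.59 to 9.68 and 9.41 to 9.58, a difference of -0.15 (SE 0.06). Atp5h and Atp5l are named because their groups did not overlap, which was seen in the values.

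Atp5md, a small membrane subunit that helps synthase dimers form, had the smallest p for the sex difference. In females it was at 11.80, 11.83 and 11.91 in controls and at 11.53, 11.64 and 11.82 in labelled knockdowns, a difference of -0.18 (SE 0.06). In males it was at 11.58, 11.75 and 11.86 in controls and at 11.77, 11.90 and 11.94 in labelled knockdowns, a difference of 0.14 (SE 0.06). The male minus female difference was 0.32 (SE 0.08, unadjusted p 0.000544, adjusted p 0.845 in limma). Atp5k, the e subunit, differed by -0.07 in females and 0.15 (SE 0.06) in males. Of the 3 genes for the same c-ring protein, Atp5g3 differed by -0.15 (SE 0.05), Atp5g2 by -0.03 (SE 0.05) and Atp5g1 by 0.06 (SE 0.11) in females. In the catalytic head Atp5a1 (α) and Atp5b (β) differed by -0.10 and -0.08 in females, each with all 6 mice below the control mean, and by -0.01 and 0.00 in males. Atp5c1 (γ) differed by -0.07 and -0.08. Atp5j2, the f subunit and the dimmest functional gene of the complex (5.9), was higher by 0.18 (SE 0.09) in females. The pseudogene Atp5c1-ps varied most of all 82 within groups (SD 0.285).

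**Figure D3:**
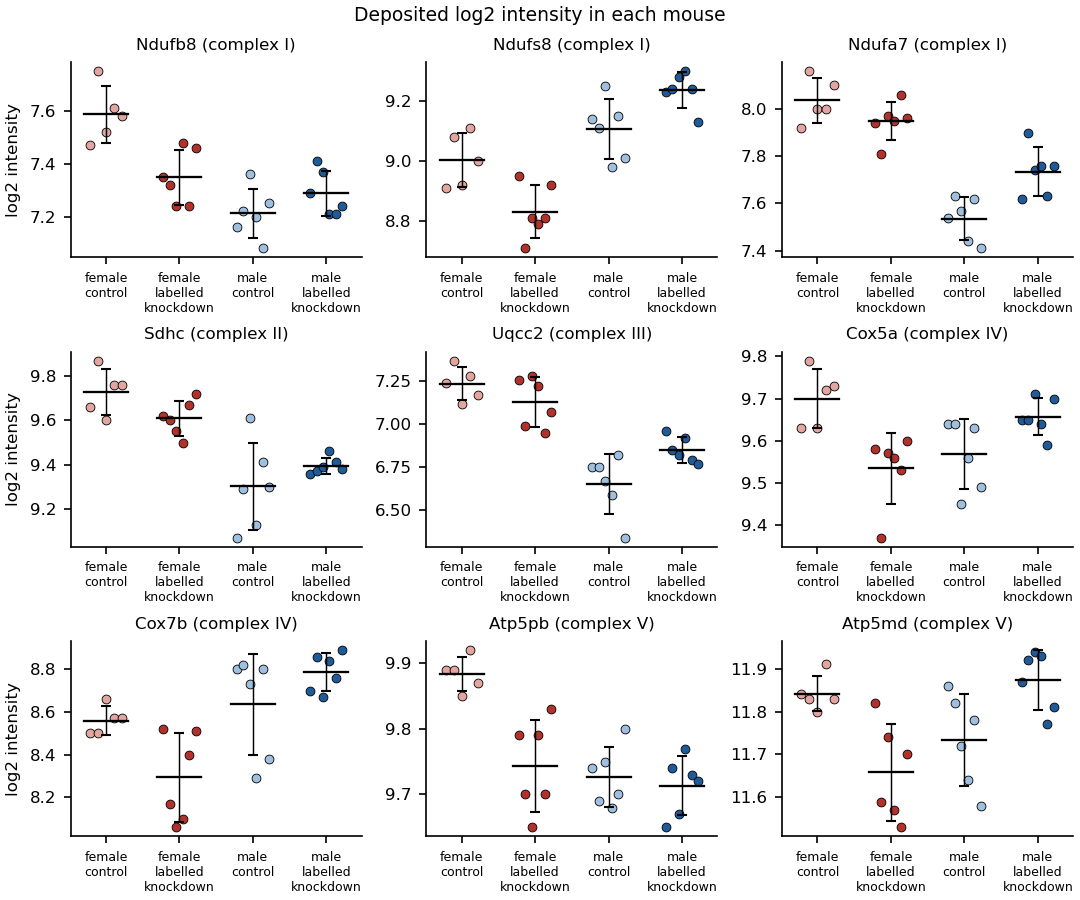
Deposited log2 intensity (vertical axis, a separate range for each gene) in each of the 23 mice for 9 genes, by labelled group. Points are mice, bars the mean and whiskers the SD; Cox5a and Atp5pb do not overlap between the female groups, Ndufb8 and Atp5md meet at their edges, and the male groups of each gene overlap.

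Set side by side, the female and male differences of the named genes lay mostly at lower female and higher male values. The sexes have their own controls, so these comparisons share no array. Cox7b (-0.27 and 0.15), Ndufb8 (-0.24 and 0.08), Atp5md (-0.18 and 0.14), Uqcc2 (-0.11 and 0.20) and Ndufs8 (-0.17 and 0.13) were examples of that direction. Cox8b (0.17 and -0.05), Atp5g1 (0.06 and -0.14) and Atp5c1-ps (0.11 and -0.25) had the opposite signs. Ndufs1 (-0.09 and -0.08) and Atp5c1 (-0.07 and -0.08) were lower in both sexes, and Cox6a2 (0.14 and 0.11) and Atp5j2 (0.18 and 0.06) higher in both. None of these single differences passed the test. Female labelled knockdown 5 was at 7.70 for Cox6a2, where the other female labelled knockdowns were at 7.14 to 7.41. Male controls 4 and 6 were the highest for Ndufs1 (9.60 and 9.76) and for Atp5c1 (8.03 and 8.02). The other male controls were at 9.31 to 9.36 and 7.77 to 7.85. Male labelled knockdowns were at 9.30 to 9.41 and 7.71 to 7.91. For Cox7b, male controls 4 and 6 were the lowest (8.29 and 8.38). The other male controls were at 8.73 to 8.82 and male labelled knockdowns at 8.67 to 8.89. For Cox6a2 they were also the lowest controls (6.70 and 6.60), with the others at 6.96 to 7.04 and labelled knockdowns at 6.91 to 7.06. Controls 4 and 6 were likewise the lowest male controls for Atp5md, Uqcc2 and Ndufs8.

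**Figure D4:**
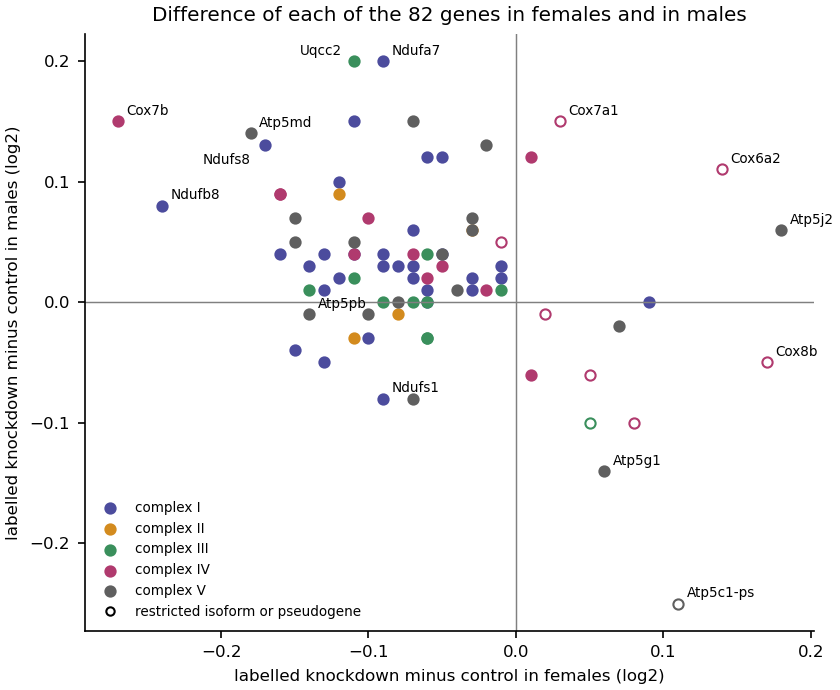
Labelled knockdown minus control for each of the 82 genes, in females (horizontal axis, log2) against males (vertical axis, log2), coloured by complex, with open circles for restricted isoforms and pseudogenes. Most points lie left of 0 (68 of 82) and above 0 (59 of 82), with Cox7b (-0.27, 0.15) and Ndufb8 (-0.24, 0.08) farthest left.

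The differences were also set out by promoter core, with no test. In females all 10 genes with the NRF-1 core were lower (median -0.06), as were 48 of the 57 without it (median -0.08). For the ETS core the counts were 16 of 17 and 42 of 50, for the ERR core 5 of 7 and 53 of 60, and for the YY1 core 9 of 11 and 49 of 56. The female medians with and without the core were -0.08 and -0.07 for ETS, -0.07 and -0.07 for ERR, and -0.11 and -0.07 for YY1. The male medians were 0.05 and 0.03 for NRF-1, 0.04 and 0.03 for ETS, 0.00 and 0.04 for ERR, and 0.04 and 0.03 for YY1. Ndufa11, whose promoter is shown above, differed by -0.01 in females, a sign that turned under quantile normalization.

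Other gene lists were read beside the respiratory chain. No gene of any of these lists passed the test (background 0%), so the counts are signs of differences. They are read against the 6725 genes between the members' quartiles (7.38 to 9.75), of which 68.2% were lower in females and 45% lower in males. The glycolysis and citric acid cycle lists were brighter than that, with mean levels of 10.2 and 10.16 in female controls. Of named genes at a level of 10 or above, 65.4% were lower in females and 37.3% in males. Of 67 cytosolic ribosomal protein genes 51 (76.1%) were lower in females (median -0.094) and 51 higher in males (median 0.045). Of 71 mitochondrial ribosomal protein genes 62 (87.3%) were lower in females (median -0.064) and 50 higher in males (median 0.032). Of 13 glycolytic genes 12 were lower in females (median -0.06) and 11 higher in males (median 0.04). Ldhb, which codes for the lactate dehydrogenase subunit of oxidative tissue, differed by -0.16 (SE 0.04) in females and 0.05 in males, and the mutase gene Pgam1 by -0.19 (SE 0.06) and -0.03. Most genes of these 3 lists thus had the signs that most members had.

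The citric acid cycle and pyruvate dehydrogenase genes were lower in females for 14 of 15 (median -0.072) and lower in males for 10 of 15 (median -0.015). Idh3b, a subunit of isocitrate dehydrogenase, differed by -0.14 (SE 0.04) and 0.02, and Dlat, the acetyltransferase of pyruvate dehydrogenase, by -0.13 (SE 0.05) and -0.05. Of 42 assembly factors 37 were lower in females (median -0.064), and 22 were higher and 19 lower in males (median 0.007). Carriers, transporters and subunits whose names fall outside the rule were lower in females for 7 of 7 (median -0.079), with cytochrome c, Cycs, at -0.11 (SE 0.04) and the ATP/ADP carrier Slc25a4 at -0.08 (SE 0.04). In males these were -0.01 and -0.04. Regulators of mitochondrial biogenesis were near 0 in both sexes (medians -0.016 and 0.006 over 18 genes). Tfam, which packages mitochondrial DNA, differed by -0.04 (SE 0.09) and -0.16 (SE 0.09), and the coactivator gene Ppargc1b by 0.05 and 0.09.

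The subunits coded in mitochondrial DNA were near 0 on the deposited scale in both sexes. For the 10 of 13 such genes with a probe set of their own, the medians were -0.005 in females and -0.011 in males, with 6 and 8 lower. ND4, at a mean of 13.90 in female controls, differed by -0.01 (SE 0.04), and ND6, coded on the other strand, by -0.02 (SE 0.07). With each array centred on its median all 10 were lower in females (median -0.031), so their direction depended on the scaling. That centring also put the median of all named genes at -0.025 in females, with 13829 of 22180 lower. The female median of the 82 nuclear genes under that centring was -0.095.

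Cell type markers were set beside these values. In females the cortical excitatory list was higher for 7 of 11 genes (median 0.035), with list means of 7.89 to 8.58 in controls and 7.79 to 8.71 in labelled knockdowns. The medium spiny neuron list was lower for 10 of 19 (median -0.003; list means 10.35 to 10.60 and 10.34 to 10.62). Astrocyte markers were lower for 9 of 12 (median -0.041) and interneuron markers for 10 of 13 (median -0.034). Microglia, oligodendrocyte, endothelial and mural, and ependymal medians lay between -0.027 and 0.007. No marker of these lists passed the test in either sex. In males medium spiny neuron markers were higher for 17 of 19 (median 0.095; list means 9.86 to 10.22 and 10.04 to 10.29), cortical markers for 9 of 11 (median 0.097; 6.83 to 8.60 and 6.93 to 8.26) and microglial markers for 11 of 12 (median 0.082; 7.53 to 7.70 and 7.66 to 7.72). Ependymal markers were higher for 7 of 8 (median 0.064). Oligodendrocyte markers were lower for 9 of 11 (median -0.083), astrocyte markers for 7 of 12 (median -0.012) and interneuron markers for 7 of 13 (median -0.04), and endothelial and mural markers were higher for 7 of 12 (median 0.006). No marker of these lists is at 0 on an array scale, and the lowest Slc17a7 value (4.64) lay near the lower quartile of the male arrays (4.50 to 4.56). The part of these markers other than the cortical ones in the male result was not tested. With the cortical mean as a covariate with its own slope in each sex, chosen after the values were seen, the member medians were -0.07 in females and 0.0269 in males.

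Within groups the members covaried only weakly. The deviations of the 82 genes from their group means over 23 arrays gave a median Pearson r of 0.086 over 3321 pairs, with 62.2% above 0, against 0.003 over all pairs of named genes. For members with a mean of 8 or more it was 0.167, against 0.032 for all genes of that brightness. These values describe arrays that share hybridization, labelling and scaling. The median was 0.087 for pairs of the same complex and 0.085 for pairs of different complexes. In females these were 0.158 and 0.148, and in males 0.084 and 0.041. Complex I had the highest median (0.139) and complex III the lowest (-0.022). In the 11 female arrays the member median was 0.15 and in the 12 male arrays 0.053. Ndufa2 (0.30) and Ndufs8 (0.26) followed the other members most closely, and Ndufs1 (-0.20) and Sdha (-0.13) ran against them.

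Some pairs of members were far more closely related. The highest correlations were Atp5a1 with Atp5b (r = 0.86, Spearman's rho 0.82), Ndufa11 with Ndufs7 (0.85, rho 0.83) and Ndufs1 with Sdha (0.84, rho 0.63). The lowest were Cox6a2 with Ndufv2 (-0.86, rho -0.84), Cox6a2 with Sdha (-0.82, rho -0.71) and Ndufb9 with Ndufs1 (-0.80, rho -0.71). Without the 2 arrays farthest from the median of the first gene, the first 3 were 0.77, 0.80 and 0.70 and the last 3 were -0.78, -0.69 and -0.65. These pairs were picked as extremes of 3321, so no p is given. Most held in each sex alone, but Ndufb9 with Ndufs1 was -0.42 in females and -0.93 in males. Male controls 4 and 6 were the lowest of the males for Ndufb9 (11.67 and 11.56) and the highest for Ndufs1 (9.60 and 9.76).

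A principal axis with 19.6% of the variance of the members had Ndufs1 (r with the axis -0.85), Sdha (-0.71) and Atp5c1 (-0.61) at its negative end and Ndufa3 (0.82), Ndufb9 (0.79), Ndufs8 (0.78) and Atp5h (0.78) at its positive end. It ran against the citric acid cycle list (-0.64) and with glycolysis (0.43). A second axis, with 15.5%, was led by Atp5b (0.88) and Ndufa9 (0.85), with Cox6a2 at -0.61. Its correlation was 0.63 with glycolysis, 0.62 with the citric acid cycle and -0.53 with the mitochondrially coded genes. Within their own list the mitochondrially coded genes had a median r of 0.867, and with the members one of -0.088. With the members the sign differed by sex, at -0.148 in the 11 female arrays and 0.089 in the 12 male arrays.

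Single members followed other tissue or pathway signals. Cox6a1 followed the cortical marker mean (r = 0.79, rho 0.85 over 23 arrays; 0.84 in females and 0.86 in males) and the interneuron mean (0.76). Sdha and Ndufs1 followed the citric acid cycle mean (0.82 and 0.81, rho 0.70 and 0.66), at 0.98 and 0.93 in males but 0.37 and 0.36 in females. Without the 2 arrays farthest from the gene's median they were 0.74 and 0.62. Male controls 4 and 6 were the highest of the males for Sdha (11.15 and 11.21), Ndufs1 (9.60 and 9.76) and the median of that list (0.102 and 0.115 from the control mean). Whether the sexes differ apart from these mice was not tested. Atp5pb followed the assembly factors (0.78; 0.79 and 0.78 in the sexes). Uqcrb followed the mitochondrially coded genes (0.78; 0.91 and 0.76). These correlations with lists were picked as large ones among many genes and lists, after the values were seen, so no p is given. Outside the rule, the genes most like the members by the median of their correlations with all 82 were Bola2 and Puf60 (0.28), Nt5c, Anapc13, Cnot9, Mdh2 and Zpr1 (0.27), and Txndc17, Polr2e and Trappc1 (0.26). Of these, Mdh2 codes for the mitochondrial malate dehydrogenase. Ndufa2, Ndufa3, Ndufa9 and Atp5j2 were singled out after their values were seen.

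**Figure D5:**
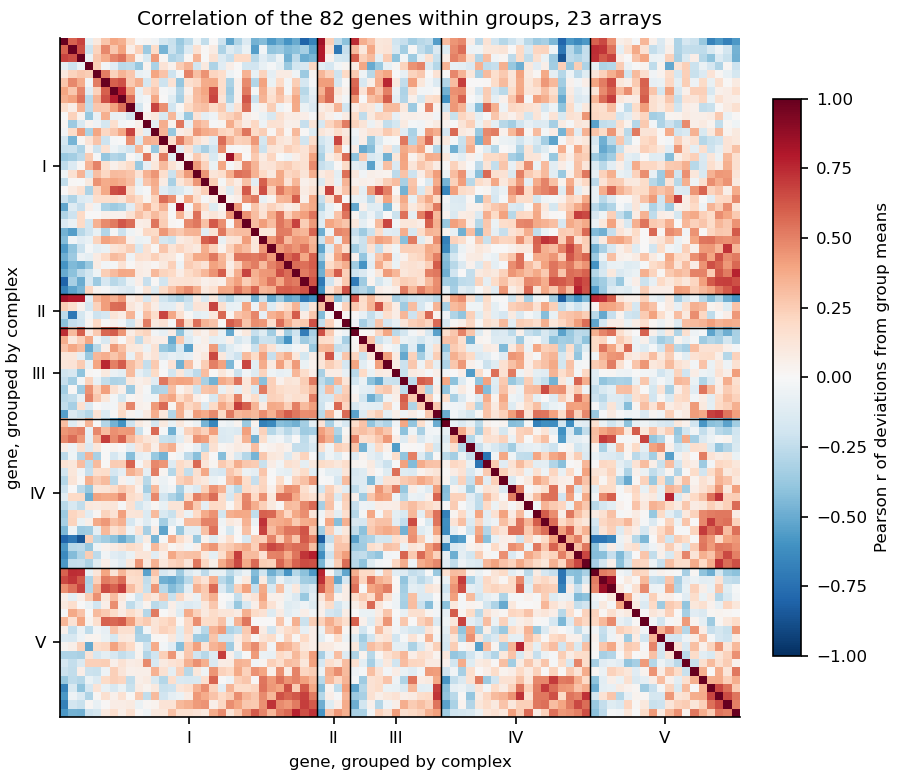
Pearson r between each pair of the 82 genes (colour, from -1 to 1), computed on deviations from group means over 23 arrays; rows and columns are genes, grouped by complex and ordered within it by correlation with the first axis. Red blocks at the corners of complexes are not confined to the diagonal squares, and the median r was 0.087 within and 0.085 between complexes.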

How the data were processed

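Whole-transcript arrays measured RNA from micropunched nucleus accumbens of 23 mice. The authors deposited log2 intensities for 41345 probe sets, and the submitters' processing notes name the Transcriptome Analysis Console. Version, background correction, normalization and build were not given in the sources used here. Gene names came from the platform annotation: 23521 probe sets had 1 symbol, 1814 several and 16010 none. The brightest probe set stood for each of 22180 named genes.

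Differences were fitted with limma 3.58.1 (R 4.3.3) on the deposited log2 values, with 1 mean per group and the spread shared over 23 arrays (lmFit, eBayes, residual df 19). Tests were two-sided, with Benjamini-Hochberg adjustment over all probe sets and a threshold of 0.05. The fit was tested on simulated data with independent noise and shifts larger than any difference of a member. Its power for shifts as small as those reported here, in genes that covary, was not tested. Covariation used deviations from group means. Tables and plots were made with Python 3.11.15, pandas 2.3.3 and matplotlib 3.10.9. The number of arrays limits the precision.

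The members, lists and tests were chosen with earlier results of these data known. Named genes were, for each complex, the members with the 2 smallest p in females, in males and on average, the brightest and dimmest, all isoforms, the 5 with the largest and smallest spread, the 3 most and least correlated pairs, the 10 most similar genes outside the rule and 2 genes of each pathway list. Alternatives were other scalings, array weights, filters, sexes fitted alone, all probe sets averaged, a cortical covariate, a replicate block and omitted arrays. Equal replicate numbers did not pair mice (correlations of deviations -0.10 to 0.14).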

Additional observations from a re-analysis of the deposited data

Results flagged for a closer look

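In 200 combinations of a named gene, or of the members' median, with a group, 12 held a mouse far from the others by Dixon's criterion, where chance gives about 1 in 20. In the female controls, mouse 1 was at 6.63 for Ndufs5 (others 6.48 to 6.52) and mouse 5 at 8.41 for Sdhb (others 8.53 to 8.57). In the female labelled knockdowns, mouse 1 was at 9.90 for Ndufs4 (others 9.70 to 9.77). Female labelled knockdown 2 was at 9.37 for Cox5a (others 9.53 to 9.60) and at 5.06 for Cox8c (others 4.70 to 4.82). Female labelled knockdown 5 was at 10.89 for Sdha (others 11.04 to 11.12). In the male controls, mouse 1 was at 7.71 for Uqcr11 (others 7.51 to 7.58) and mouse 3 at 7.79 for Cox7a2l (others 7.59 to 7.66). In the male labelled knockdowns, mouse 2 was at 8.93 for Atp5g3 (others 8.82 to 8.86), mouse 5 at 3.84 for Atp5c1-ps (others 3.35 to 3.51) and mouse 6 at 9.65 for Ndufv2 (others 9.41 to 9.50). Male labelled knockdown 1 had a median over the 82 genes of 0.004 against the control mean, where the other 5 were at 0.029 to 0.043.

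The median over the 82 genes lay below the control mean in all 6 female labelled knockdowns (highest -0.04) and above it in all 6 males (lowest 0.004). The difference of this summary between the sexes was not tested.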

How the results depend on the processing

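No member passed the test in any comparison under any alternative run. Of the alternative values 405 planned and 21 chosen after seeing the data stayed near the reported ones, and 11 planned values moved. Some of these values could not move, so the tally does not measure robustness. Omitting an array of 1 sex cannot change the median difference of the other sex. Fitting each sex alone cannot change the medians of females or males. The planned cortical covariate, a deviation from its group mean, also leaves every median difference unchanged. Over all 41345 probe sets, 1 passed in males and 1 for the difference between the sexes when male controls 1 and 6 were both left out, and 1 for that difference with array weights. Leaving out single arrays gave 0 to 1 probe sets called in females (1 without female labelled knockdown 1 or without male labelled knockdown 4), in males and for the sex difference (1 without male control 1 or without male control 5), and 0 on average. With each array centred on its median, the median sex difference of the members was 0.129 and their median pairwise r 0.156. Under that centring the median sex difference of all named genes was 0.035. Leaving out single arrays gave medians of -0.0862 to -0.059 in females, 0.0197 to 0.0417 in males (highest without male control 1), -0.0308 to -0.0135 on average and 0.0797 to 0.107 for the sex difference, and a pairwise r of 0.0688 to 0.1. Quantile normalization gave -0.0499 in females, 0.0228 in males and 0.0706 for the sex difference. Without the pseudogenes, a choice made after seeing the data, the medians were -0.0722, 0.0275 and 0.0968. The replicate block gave medians of -0.074 in females, 0.0267 in males, -0.026 on average and 0.0983 for the sex difference, a pairwise r of 0.124 and no calls, and it changed no other call. The cause of these changes was not tested. The dimmest members, such as Cox7b2 and Atp5c1-ps, lay below a level of 4 and are limited by signal.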
